A study of Mus musculus with 22 samples.

Results

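The homing and adhesion receptors are 9 genes, matched by symbol and Ensembl identifier among the 46603 genes of the count table, that encode surface proteins with which T cells enter, move through, hold on to and leave tissue. They are the chemoattractant receptors Ccr7, S1pr1, Cxcr3 and Cxcr4, the hyaluronan receptor Cd44, and the integrin subunits Itga4, Itgb7, Itgae and Itgal. All 9 passed the filter on low counts and were tested in every comparison. Bulk RNA sequencing measured them in CD8+ T cells of 8 mice, in 22 libraries. Every mouse is labelled as carrying Cd4Cre, a Cre recombinase under a promoter active from T cell development onward, so controls and modified mice share it. A total of 3 KI mice carry a Tcaim knock-in, and 3 wt mice of that line carry Cre without it. The other 2 mice belong to a Tcaim knockout line, and wt mice of that line were not analysed here. KI and wt cells were taken naive from spleen and lymph nodes, and after 24 h and 48 h of activation by antibodies, anti-CD3 fixed to the plate and anti-CD28 in solution. Cells of the knockout line were taken naive and after 48 h. KI and wt mice came 1 each from experiments 1, 3 and 5, male in experiments 1 and 3 and female in experiment 5. Both mice of the knockout line were female and came from experiments 1 and 5. Ages are not given in the sources used here.

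As background, naive T cells circulate between blood and lymph nodes: CCR7 reads chemokines of the lymph node, integrins halt the cell on the vessel wall, and S1PR1 reads sphingosine 1-phosphate to guide the cell out again. After activation a T cell is held in the node, changes its receptors, and later uses CXCR3, CD44 and integrins to enter inflamed tissue. KLF2, a transcription factor of resting T cells, drives S1pr1, and T-bet (Tbx21) drives Cxcr3. TGF-beta signalling favours Itgae.

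The stretches before the start sites of Itga4, Itgb7 and Cd44 are shown. They were chosen because the first pair moved together across the libraries and Cd44 moved against them. Cxcr4, whose stretch is not shown, moved with Itga4 as closely (r = 0.914 for log2 CPM, against 0.900 for Itgb7). The choice was thus made from these same data and does not set the pair apart. Of the 9 genes, 5 had a promoter in the RefSeq table (GRCm38.p6): Cxcr3, Cxcr4, Cd44, Itga4 and Itgb7. Each line gives the 250 bases upstream of the RefSeq start, 5′ to 3′ on the strand of the gene, at chr2:79255176-79255425 (Itga4, plus strand), chr15:102231936-102232185 (Itgb7, minus strand) and chr2:102901666-102901915 (Cd44, minus strand). Capitals mark matches on either strand to 5 motifs: CACCC (the core of KLF sites), GTAAACA (forkhead), TGTGGT (RUNX), TGANTCA (AP-1) and GGTGTGA (T-box).
Itga4: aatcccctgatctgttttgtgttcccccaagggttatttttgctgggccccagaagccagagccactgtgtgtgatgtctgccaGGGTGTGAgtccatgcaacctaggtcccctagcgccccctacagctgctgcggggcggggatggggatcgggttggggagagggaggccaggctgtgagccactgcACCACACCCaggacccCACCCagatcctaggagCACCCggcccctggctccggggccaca
Itgb7: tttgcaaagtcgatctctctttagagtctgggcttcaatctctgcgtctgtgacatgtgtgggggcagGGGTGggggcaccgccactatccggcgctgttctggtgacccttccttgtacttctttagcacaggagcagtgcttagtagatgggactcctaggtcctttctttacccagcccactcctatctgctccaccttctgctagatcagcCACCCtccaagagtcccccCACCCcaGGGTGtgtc
Cd44: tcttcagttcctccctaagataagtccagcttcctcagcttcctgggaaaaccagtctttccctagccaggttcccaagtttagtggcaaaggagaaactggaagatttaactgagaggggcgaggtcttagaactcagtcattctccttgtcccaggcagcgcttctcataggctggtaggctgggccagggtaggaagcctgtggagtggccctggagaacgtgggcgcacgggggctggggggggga
The Itga4 stretch holds 4 matches to CACCC, 1 to TGTGGT and 1 to GGTGTGA. The GGTGTGA match shares bases with a CACCC match on the other strand, and the TGTGGT match runs into a CACCC match. The Itgb7 stretch also holds 4 matches to CACCC, and none of the other motifs was found there. Its last 9 bases, with the last match, lie within the longer Itgb7 span of the deposited tables given below. Likewise 122 bases of the Cxcr3 stretch lie within the Cxcr3 span. No motif was found in the Cd44 stretch, while Cxcr4 holds 1 match to CACCC and Cxcr3 1 to TGTGGT. Of all 32851 stretches of this length in the table, 52.0% hold CACCC, 3.17% GTAAACA, 14.05% TGTGGT, 6.75% TGANTCA and 3.33% GGTGTGA. A match is a run of letters, not a measured binding site.

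Total counts ranged from 62551905 to 93489115 per library, and the member with the fewest reads, Cxcr3, had at least 232 counts in each. Tcaim was at 138 to 260 CPM (counts per 1000000 of the TMM-scaled library size) in KI libraries and at 8.38 to 15.2 CPM in wt libraries. In the libraries labelled KO it was at 5.99 to 19.5 CPM, ranges that overlap with wt. The count covers the whole gene, so a deletion of part of it may not lower the count, and these are called the libraries labelled KO throughout. The labelled KO library of experiment 1 at 48 h stood apart on the second principal component (127, against 61.3 for the next), so results with this group are also given without that mouse. The 7 CD8 T cell markers summed to 3090 to 6119 CPM in every library, and none was near 0. The 6 B cell markers summed to 209 to 439 CPM in naive KI and wt libraries and to 46.6 to 252 CPM after activation, with 1219 CPM in 1 naive library labelled KO. In KI and wt libraries the 4 NK cell markers summed to 24.1 to 73.9 CPM naive and 1.10 to 5.35 CPM after activation, the 6 myeloid markers to 89.7 to 225 and 20.4 to 60.7 CPM, the 3 gamma-delta T cell markers to 31.6 to 53.6 and 3.98 to 20.9 CPM, and the 5 dendritic cell markers to 10.2 to 26.9 and 3.35 to 10.1 CPM. Naive and activated ranges overlapped for B cell markers and not for these 4 other types, and the part of such cells in the changes with activation was not tested. The 3 CD4 T cell markers summed to 30.8 to 85.7 CPM in KI and wt libraries, and to 264 CPM naive and 202 CPM at 48 h in the labelled KO mouse of experiment 1.

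**Figure D1:**
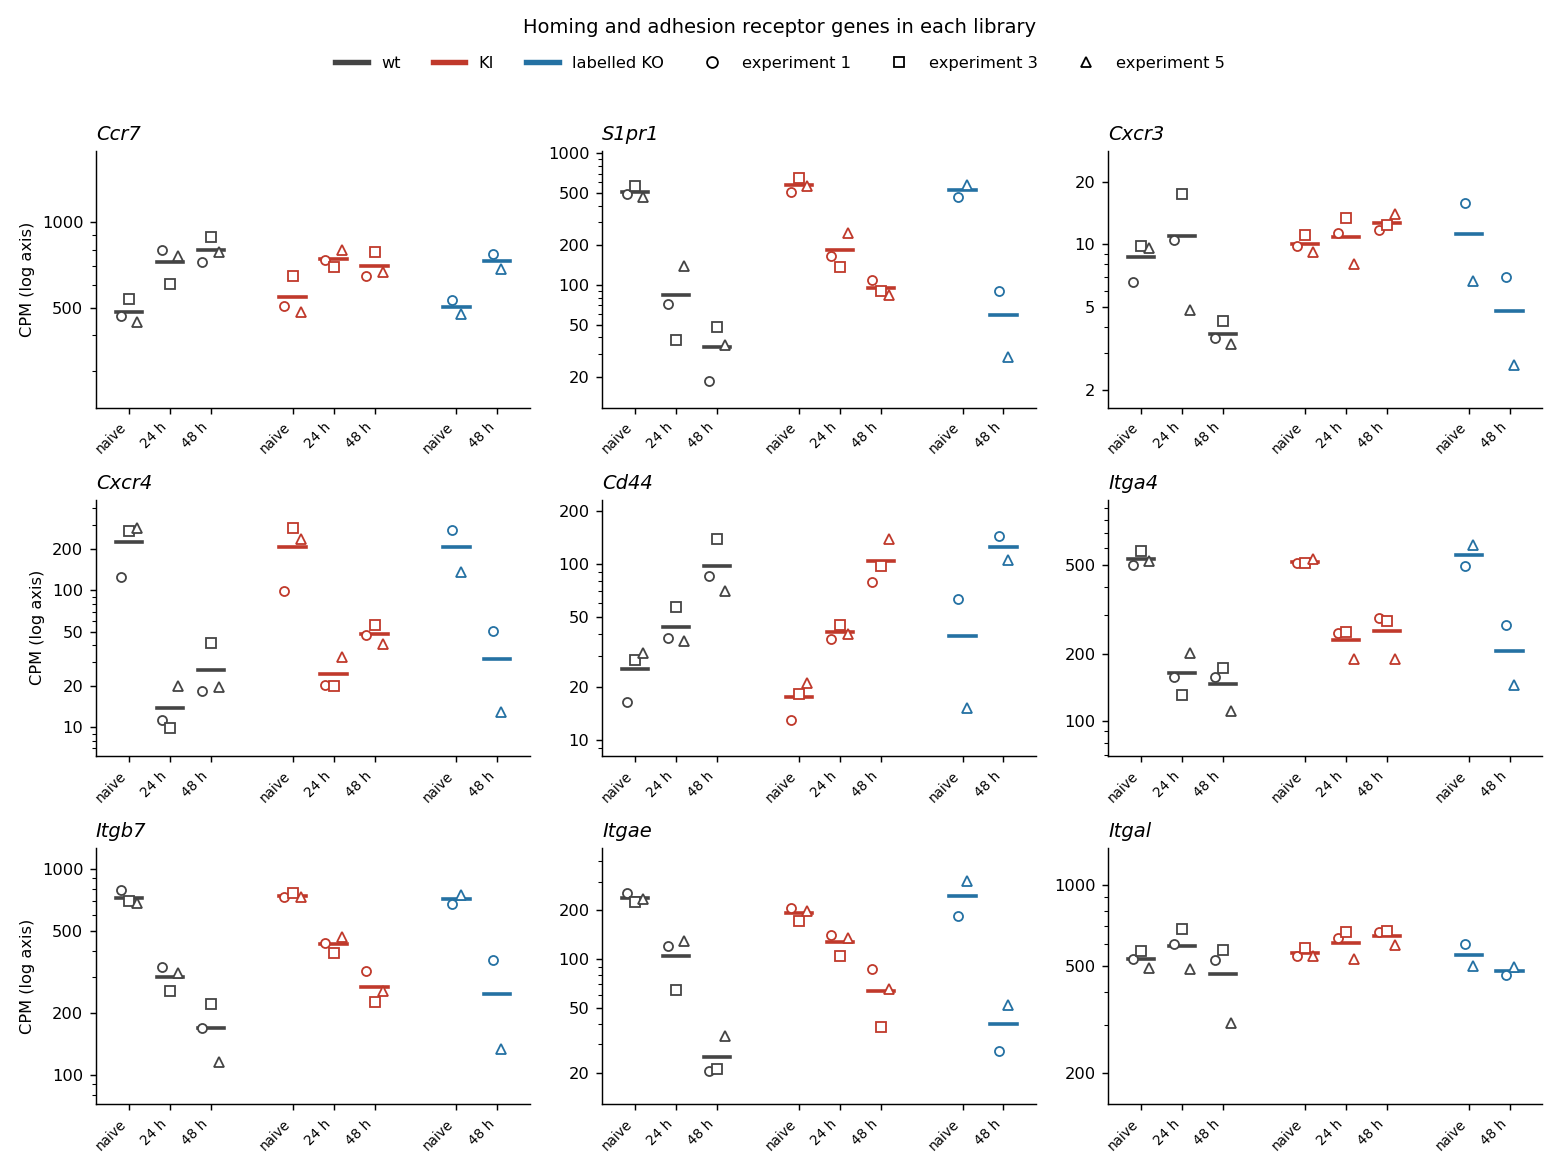
CPM of the 9 genes in each of the 22 libraries (log axis), by group; bars are group means, point shapes give the experiment. S1pr1, Cxcr4, Itga4, Itgb7 and Itgae lie lower after activation in every genotype, Cd44 and Ccr7 lie higher, and at 48 h the KI points of S1pr1, Cxcr3, Itga4, Itgb7, Itgae and Itgal lie above all wt points.

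The first question was what activation did to these transcripts in wt cells. After 24 h, S1pr1, Cxcr4, Itga4, Itgb7 and Itgae fell and Ccr7 rose. After 48 h the same 5 genes and Cxcr3 had fallen, and Ccr7 and Cd44 had risen. Itgal did not pass the test at either time. Thus 6 of 9 members were called at 24 h (edgeR quasi-likelihood F test, Benjamini-Hochberg adjusted p under 0.05 over 21183 genes), where 48.3% of all tested genes were called. At 48 h 8 of 9 were called, where 56.3% were called. Between 24 h and 48 h 2 of 9 were called, Cxcr3 and Itgae, both lower, against 7.49% of all genes. Without the KI mouse of experiment 1 or 3, 1 of 9 was called between these times, and without the wt mouse of experiment 1 0 of 9. Without the labelled KO mouse of experiment 1 or 5, which bear mainly on the spread, more members were called. In bulk RNA, fewer cells with a transcript and less transcript per cell cannot be told apart.

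Ccr7 (chromosome 11, 99144196 to 99155077) encodes the receptor for CCL19 and CCL21. Naive wt cells of experiments 1, 3 and 5 had 467, 536 and 444 CPM, cells at 24 h 801, 606 and 763 CPM, and cells at 48 h 724, 892 and 786 CPM. Every activated wt library lay above every naive one. The log2 fold change was 0.58 ± 0.14 (SE) at 24 h (edgeR adjusted p = 0.00199) and 0.73 ± 0.14 at 48 h (edgeR adjusted p = 0.000219). Without the wt mouse of experiment 1 the 24 h value was 0.48 with an edgeR adjusted p of 0.05003, just over the threshold.

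S1pr1 (chromosome 3, 115710433 to 115715072), the exit receptor, went the other way. Its naive wt values were 492, 564 and 464 CPM. At 24 h they were 71.9, 38.1 and 140 CPM, and at 48 h 18.7, 47.7 and 35.2 CPM. No activated library came near a naive one, and the wt mice had kept 3.81%, 8.46% and 7.59% of their own naive level at 48 h. On the log2 scale S1pr1 changed by -2.60 ± 0.43 (SE) at 24 h (edgeR adjusted p = 7.88e-05) and -3.90 ± 0.46 at 48 h (edgeR adjusted p = 1.08e-06).

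Cxcr4 (chromosome 1, 128588199 to 128592293) encodes the receptor for CXCL12, a chemokine of stroma. In naive wt cells it was at 126, 269 and 284 CPM, at 24 h at 11.2, 9.86 and 20.2 CPM, and at 48 h at 18.4, 41.0 and 19.7 CPM. On the log2 scale Cxcr4 changed by -4.04 ± 0.54 (SE) at 24 h (edgeR adjusted p = 7.02e-06) and -3.10 ± 0.52 at 48 h (edgeR adjusted p = 5.59e-05). Its lowest values were at 24 h, but the difference between 24 h and 48 h did not pass the test (log2 fold change 0.94 ± 0.48, edgeR adjusted p = 0.276). The naive libraries of experiment 1 had the least Cxcr4 in both wt and KI, at 126 and 98.6 CPM. In the mice labelled KO the order was reversed, with 275 CPM in experiment 1 and 136 CPM in experiment 5. The lower naive library of each genotype also had its lowest NK cell marker sum, 24.1 (wt), 29.0 (KI) and 27.7 CPM (labelled KO). This was not particular to NK cells. The same libraries had the lowest naive myeloid sums of their genotype, 97.8, 89.7 and 89.9 CPM. Their dendritic cell, gamma-delta T cell and CD4 T cell sums were the lowest too. B cell sums were lowest there in wt and labelled KO, not in KI. The part of such cells in these levels was not tested.

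Cxcr3 (chromosome X, 101731535 to 101734269), the receptor for the interferon-induced chemokines CXCL9 and CXCL10, was a low transcript. Naive wt cells had 6.60, 9.83 and 9.58 CPM. At 24 h the libraries spread widely, with 10.5, 17.5 and 4.86 CPM, and the change did not pass the test (log2 fold change 0.33 ± 0.39, edgeR adjusted p = 0.497; -0.08 without the wt mouse of experiment 3). At 48 h all were low, with 3.54, 4.31 and 3.32 CPM. The log2 fold change at 48 h was -1.22 ± 0.40 against naive (edgeR adjusted p = 0.0140; 0.0516 without the wt mouse of experiment 5). Against 24 h it was -1.55 ± 0.40 (edgeR adjusted p = 0.0229). That second call was lost without the wt mouse of experiment 1 (edgeR adjusted p = 0.204) or 3 (0.147), or without the KI mouse of experiment 1 (0.0594) or 3 (0.0529), whose libraries enter the shared estimate of spread. Tbx21, which encodes T-bet, rose at 48 h in the same cells, from 8.27 ± 3.12 to 58.4 ± 17.9 CPM (SD, n = 3).

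Cd44 (chromosome 2, 102811141 to 102901665) encodes a hyaluronan receptor that is a standard surface marker of antigen-experienced T cells. Naive wt cells had 16.3, 28.3 and 31.2 CPM, cells at 24 h 37.8, 56.9 and 36.5 CPM, and cells at 48 h 85.1, 137 and 69.7 CPM. The 3 ranges did not overlap. The log2 fold change of 1.95 ± 0.40 (SE) at 48 h passed the test (edgeR adjusted p = 0.000403), and that of 0.79 ± 0.39 at 24 h did not (edgeR adjusted p = 0.0975). Without the labelled KO mouse of experiment 1 or 5, which enter the shared estimate of spread, the 24 h value passed (edgeR adjusted p = 0.0296 and 0.0302).

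Itga4 (chromosome 2, 79255426 to 79333123) and Itgb7 (chromosome 15, 102215995 to 102231944) encode the subunits of α4β7, the integrin that binds MAdCAM-1 of gut vessels. Itga4 was at 503, 577 and 520 CPM in naive wt cells, at 158, 131 and 202 CPM at 24 h, and at 158, 172 and 111 CPM at 48 h. The log2 fold change was -1.70 ± 0.23 (SE) at 24 h (edgeR adjusted p = 6.85e-06) and -1.86 ± 0.23 at 48 h (edgeR adjusted p = 1.75e-06). Between 24 h and 48 h its libraries overlapped (-0.16 ± 0.22, edgeR adjusted p = 0.758; 0.19 without the wt mouse of experiment 5). Exons of Itga4 share 905 bases with exons of Cerkl on the opposite strand. Whether counting used strand is not given in the sources used here, so the Itga4 counts are uncertain by reads of Cerkl, whose total count over all libraries was 110768 against 523219 for Itga4. Exons of the other 8 genes overlap no other gene in the GENCODE annotation.

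Itgb7 was at 789, 700 and 685 CPM in naive wt cells, at 334, 255 and 311 CPM at 24 h, and at 169, 222 and 115 CPM at 48 h. Itgb7 had a log2 fold change of -1.27 ± 0.26 (SE) at 24 h (edgeR adjusted p = 0.000617) and -2.10 ± 0.27 at 48 h (edgeR adjusted p = 2.98e-06). The further fall from 24 h to 48 h, -0.83 ± 0.26, missed the threshold (edgeR adjusted p = 0.0600) and passed with the experiment as a replicate block (0.0484). It also passed without the wt mouse of experiment 3 (-1.18, edgeR adjusted p = 0.0346), or without the labelled KO mouse of experiment 1 (0.00552) or 5 (0.00565). Across the 22 libraries log2 CPM of Itga4 and Itgb7 correlated at r = 0.900. S1pr1 correlated with Itgb7 at 0.956 and with Itga4 at 0.920, and Cd44 with Itgb7 at -0.772. These correlations describe libraries that share mice, times and scaling.

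Itgae (chromosome 11, 73090583 to 73147446) encodes αE (CD103), which pairs with β7 and binds E-cadherin of epithelium. It was at 256, 224 and 236 CPM in naive wt cells, at 120, 65.1 and 130 CPM at 24 h, and at 20.5, 20.98 and 33.9 CPM at 48 h. Each step separated the libraries completely. Itgae had a log2 fold change of -1.18 ± 0.31 (SE) at 24 h (edgeR adjusted p = 0.00391) and -3.25 ± 0.33 at 48 h (edgeR adjusted p = 1.76e-07). The second step, -2.07 ± 0.32 from 24 h to 48 h, also passed (edgeR adjusted p = 0.000771; 0.0543 without the wt mouse of experiment 1).

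Itgal (chromosome 7, 127296260 to 127335138) encodes αL, the ICAM-binding subunit of LFA-1. It was at 526, 567 and 489 CPM in naive wt cells, at 600, 683 and 484 CPM at 24 h, and at 524, 570 and 305 CPM at 48 h. The ranges overlapped at all times. The 95% interval of the log2 fold change was -0.21 to 0.53 at 24 h and -0.55 to 0.20 at 48 h. Among the 4 integrin subunits it was the only one not called in wt cells, and its difference from the others was not tested.

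**Figure D2:**
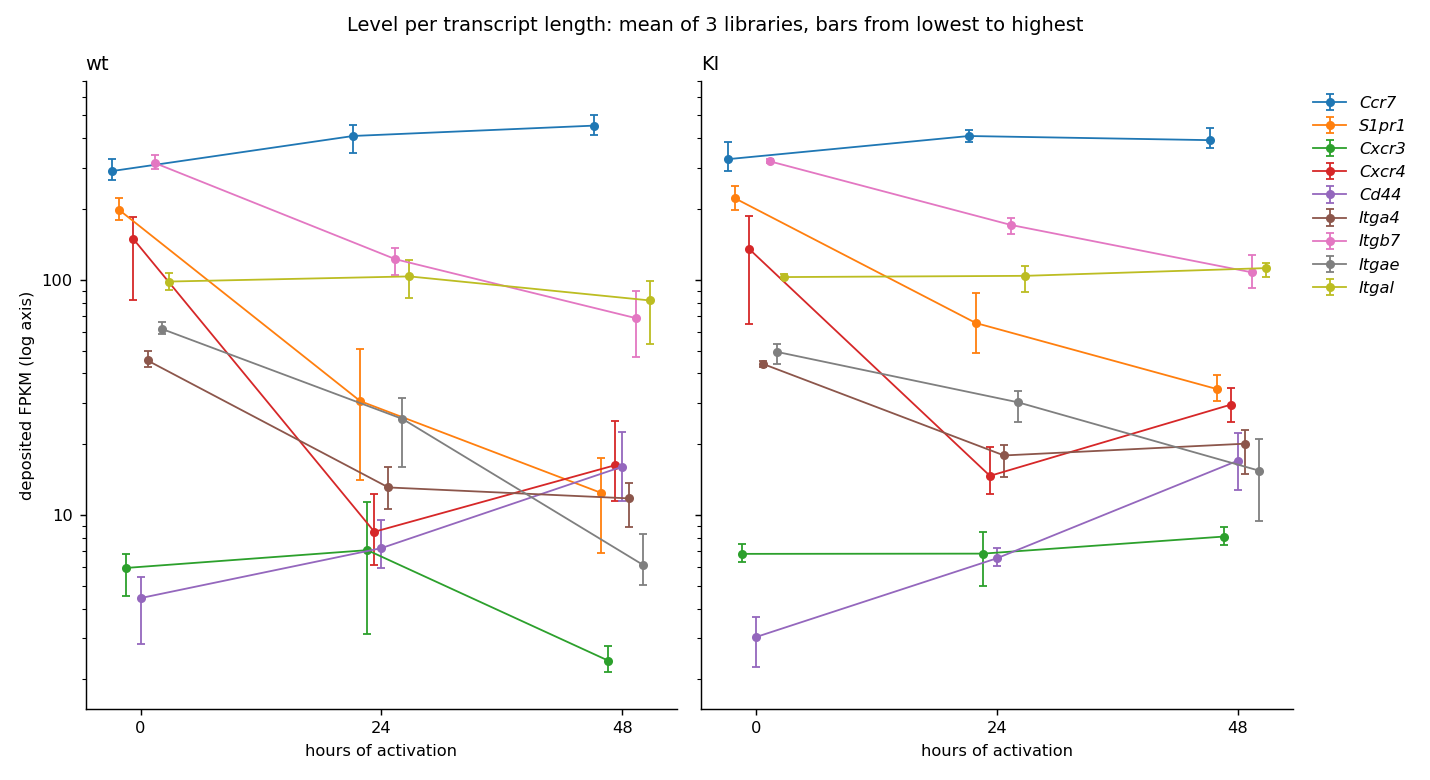
Deposited FPKM (log axis) of the 9 genes against hours of activation in wt (left) and KI (right); points are means of 3 libraries, bars run from the lowest to the highest library, and genes are offset sideways. Itgb7, Ccr7 and S1pr1 lead in naive cells, and Ccr7 leads at 48 h in both genotypes.

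Levels of different genes can be compared only per length. On the deposited FPKM scale the naive wt order was Itgb7 (314 ± 23.9, SD, n = 3), Ccr7 (290 ± 31.7), S1pr1 (198 ± 22.2), Cxcr4 (149 ± 57.7), Itgal (98.3 ± 8.20), Itgae (61.9 ± 3.88), Itga4 (45.4 ± 3.72), Cxcr3 (5.96 ± 1.26) and Cd44 (4.43 ± 1.39). Itgb7 and Ccr7, S1pr1 and Cxcr4, Cxcr4 and Itgal, and Cxcr3 and Cd44 overlapped between libraries, and the other neighbours did not. At 48 h Ccr7 stood first at 452 ± 45.2 FPKM, followed by Itgal (81.7 ± 24.7) and Itgb7 (68.7 ± 21.5), which overlapped. Cxcr4, Cd44, S1pr1 and Itga4 followed at 16.3, 16.1, 12.4 and 11.8 FPKM, each overlapping its neighbour. Itgae (6.13 ± 1.86) and Cxcr3 (2.40 ± 0.32) came last without overlap. In KI cells at 48 h Ccr7 again stood first (392.4 ± 44.6 FPKM), followed by Itgal (112 ± 8.06) and Itgb7 (108 ± 18.4). S1pr1 (34.3 ± 4.55), Cxcr4 (29.5 ± 4.93), Itga4 (20.1 ± 4.52), Cd44 (17.03 ± 4.89), Itgae (15.4 ± 5.87) and Cxcr3 (8.10 ± 0.70) followed. Here Itgal and Itgb7, S1pr1 and Cxcr4, Itga4 and Cd44, and Cd44 and Itgae overlapped between libraries, and the other neighbours did not. The order by CPM per length of GENCODE exons was the same as by FPKM in each of the 8 groups. Both scales divide the same counts by a gene length, so this is not an independent check of the order.

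Integrin subunits work as pairs, so their ratios are given too. In naive wt cells the FPKM ratio of Itga4 to Itgb1, its other partner, had a mean of 2.02. At 24 h it was 0.42 and at 48 h 0.28: Itga4 fell, and Itgb1 rose from 78.5 ± 14.6 to 159 ± 19.8 CPM (SD, n = 3; edgeR adjusted p = 0.000389). The ratio of Itga4 to Itgb7 was 0.15 naive, 0.11 at 24 h and 0.18 at 48 h. The ratio of Itgae to Itgb7 was 0.20 naive, 0.21 at 24 h and 0.10 at 48 h, with a wide spread at 48 h (SD 0.86 on the log2 scale). The ratio of Itgal to its partner Itgb2 was 0.57 naive, 0.98 at 24 h and 0.70 at 48 h. These ratios are given as descriptions, with no test.

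In KI cells, activation gave calls in the same directions as in wt cells. At 24 h 6 of 9 members were called, where 38.7% of all genes were: S1pr1, Cxcr4, Itga4 and Itgb7 lower, and Ccr7 and Cd44 higher. Without the KI mouse of experiment 1 or of experiment 3 the count was 3, and without that of experiment 5 it was 4. At 48 h 7 of 9 were called, where 48.6% of all genes were: the same 6 and Itgae. Between 24 h and 48 h 0 of 9 were called by edgeR, against 2.68% of all genes; 3288 genes had an unadjusted p under 0.05. With the replicate block 1 was called, where 3.58% of all genes were, Itgae (-1.02, edgeR adjusted p = 0.0271), DESeq2 called 2, and edgeR without the labelled KO mouse of experiment 1 called 3 and without that of experiment 5 called 2.

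Ccr7 in KI cells was at 506, 648 and 484.5 CPM naive, at 736, 694 and 799 CPM at 24 h and at 650, 784 and 666 CPM at 48 h. The lowest activated library, 650 CPM, stood barely above the highest naive one, 648 CPM. The log2 fold change was 0.44 ± 0.14 (SE) at 24 h (edgeR adjusted p = 0.0165) and 0.36 ± 0.14 at 48 h (edgeR adjusted p = 0.0399). The 48 h call was lost in 11 of 18 alternatives, among them leaving out the KI mouse of experiment 1 (0.146), 3 (0.0582) or 5 (0.145) or the wt mouse of experiment 1 (0.0568) or 5 (0.0511), and the 24 h call without the KI mouse of experiment 1 (0.134) or 5 (0.145).

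S1pr1 in KI cells went from 506, 648 and 566 CPM naive to 167, 136 and 249 CPM at 24 h and 109, 90.0 and 84.5 CPM at 48 h. Its log2 fold change was -1.64 ± 0.42 (SE) at 24 h (edgeR adjusted p = 0.00451; 0.0833 without the KI mouse of experiment 3) and -2.60 ± 0.43 at 48 h (edgeR adjusted p = 7.72e-05). Cxcr4 went from 98.6, 287 and 237 CPM to 20.4, 20.1 and 32.7 CPM at 24 h and 47.4, 56.0 and 40.7 CPM at 48 h. Each 24 h library of KI cells had less Cxcr4 than each 48 h library. Its log2 fold change against naive was -3.09 ± 0.52 at 24 h (edgeR adjusted p = 0.000118) and -2.11 ± 0.50 at 48 h (edgeR adjusted p = 0.00179). Cd44 rose from 12.9, 18.2 and 21.1 CPM to 37.5, 44.7 and 40.1 CPM at 24 h and 78.4, 96.5 and 138 CPM at 48 h. The ranges of Cd44 at the 3 times did not overlap, and the log2 fold change at 48 h was 2.58 ± 0.41 (edgeR adjusted p = 4.08e-05). At 24 h it was 1.23 ± 0.39 (edgeR adjusted p = 0.0178), a call lost without the KI mouse of experiment 1 (0.117) or 3 (0.115).

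Among the integrins of KI cells, Itga4 went from 515, 509 and 534 CPM naive to 248, 252 and 189 CPM at 24 h and 290, 281 and 189 CPM at 48 h. Its log2 fold change was -1.18 ± 0.22 (SE) at 24 h (edgeR adjusted p = 0.000402) and -1.04 ± 0.22 at 48 h (edgeR adjusted p = 0.00087). The 24 h and 48 h libraries overlapped. Itgb7 went from 728, 763 and 731 CPM to 436, 391 and 467 CPM at 24 h and 318, 225 and 256 CPM at 48 h, with -0.78 ± 0.26 at 24 h (edgeR adjusted p = 0.0238) and -1.47 ± 0.26 at 48 h (edgeR adjusted p = 0.00016). The 24 h call was lost without the KI mouse of experiment 1 (0.105), 3 (0.161) or 5 (0.0909). Itgae went from 205, 171 and 198 CPM to 141, 104 and 135 CPM at 24 h and 87.7, 38.5 and 65.7 CPM at 48 h. Every step of Itgae separated the libraries, yet only the 48 h change of -1.58 ± 0.31 passed the test (edgeR adjusted p = 0.000382), and that of -0.59 ± 0.30 at 24 h did not (edgeR adjusted p = 0.133).

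Cxcr3 and Itgal, which were lower or level in wt cells at 48 h, were not lower in KI cells. Cxcr3 in KI cells was at 9.77, 11.1 and 9.23 CPM naive, at 11.3, 13.3 and 8.02 CPM at 24 h, and at 11.7, 12.3 and 13.9 CPM at 48 h. The 48 h range lay just above the naive range, a log2 fold change of 0.34 ± 0.39 that did not pass the test (edgeR adjusted p = 0.495). Itgal was at 543, 578 and 544 CPM naive and at 668, 672 and 596 CPM at 48 h, again without overlap and again short of the threshold (0.22 ± 0.18, edgeR adjusted p = 0.327).

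The second question was how KI cells differed from wt cells at each time. In naive cells 0 of 9 members were called by edgeR, where 0.113% of all genes were, and the log2 differences ran from -0.54 (Cd44) to 0.21 (Cxcr3). Itgae, 1 of 9, separated the groups, where 10.6% of all tested genes did, at 205, 171 and 198 CPM in KI against 256, 224 and 236 CPM in wt (log2 difference -0.32 ± 0.30). At 24 h again 0 of 9 were called, where 0.00472% were. S1pr1 had the largest difference of the 9, 1.14 ± 0.42 (95% interval 0.27 to 2.01, edgeR adjusted p = 0.451), with 167, 136 and 249 CPM in KI cells against 71.9, 38.1 and 140 CPM in wt cells. Itgb7, 1 of 9, did not overlap, at 436, 391 and 467 CPM in KI cells against 334, 255 and 311 CPM, and 20.2% of all tested genes did not. Its log2 difference was 0.52 ± 0.26 (edgeR adjusted p = 0.577), with 0.39, 0.61 and 0.58 within experiments 1, 3 and 5. Within them S1pr1 differed by 1.21, 1.83 and 0.83 and Cxcr4 by 0.86, 1.03 and 0.70 at 24 h. Itga4 (0.49 ± 0.22, edgeR adjusted p = 0.534) differed by 0.65, 0.94 and -0.10.

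At 48 h, Cxcr3 and Itgae were higher in KI cells, 2 of 9 called where 4.17% of all genes were. Itgae was at 87.7, 38.5 and 65.7 CPM in KI cells against 20.5, 20.98 and 33.9 CPM in wt cells. Even the lowest KI library, of experiment 3, lay above the highest wt library. Its log2 difference was 1.35 ± 0.31 (SE), or 2.55-fold (edgeR adjusted p = 0.0184). Cxcr3, with the values above, was 3.40-fold higher, a log2 difference of 1.76 ± 0.40 (edgeR adjusted p = 0.0177). Within experiments 1, 3 and 5 the log2 differences were 2.1, 0.88 and 0.96 for Itgae and 1.72, 1.52 and 2.06 for Cxcr3, so each experiment gave the same direction.

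At 48 h S1pr1 and Itga4 lay just over the threshold, and Itgb7 and Itgal lay farther from it. S1pr1 was at 109, 90.0 and 84.5 CPM in KI cells against 18.7, 47.7 and 35.2 CPM in wt cells, a log2 difference of 1.48 ± 0.42 (edgeR adjusted p = 0.0533). Itga4 was at 290, 281 and 189 CPM against 158, 172 and 111 CPM (0.78 ± 0.22, edgeR adjusted p = 0.0533). Itgb7 was at 318, 225 and 256 CPM against 169, 222 and 115 CPM (0.66 ± 0.26, edgeR adjusted p = 0.177). Itgal was at 668, 672 and 596 CPM against 524, 570 and 305 CPM (0.47 ± 0.18, edgeR adjusted p = 0.158). In all, 6 of 9 members had all KI libraries above all wt libraries at 48 h, where 10.8% of tested genes did. For Itgb7 in experiment 3 the margin was 225 against 222 CPM, and its log2 difference there was 0.02.

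Cxcr4, Ccr7 and Cd44 overlapped between KI and wt at 48 h. Cxcr4 was at 47.4, 56.0 and 40.7 CPM in KI cells against 18.4, 41.0 and 19.7 CPM, with a 95% interval of the log2 difference of -0.15 to 1.87. Ccr7 was at 650, 784 and 666 CPM against 724, 892 and 786 CPM, lower by 0.16, 0.19 and 0.24 within the 3 experiments, with an interval of -0.48 to 0.10. Cd44 was at 78.4, 96.5 and 138 CPM against 85.1, 137 and 69.7 CPM, with an interval of -0.70 to 0.90. The direction of Cd44 differed between experiments, at -0.12, -0.51 and 0.98.

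The number of calls at 48 h depended on single mice and on the model. With the experiment as a replicate block, which pairs the mice, 4 of 9 were called, where 4.74% of all genes were: Cxcr3 and Itgae (edgeR adjusted p = 0.00685 and 0.00515), Itga4 (0.0496) and Itgal (0.0486). Without the KI mouse of experiment 1 the adjusted p of Cxcr3 was 0.114 and of Itgae 0.218, and without the wt mouse of experiment 1 they were 0.133 and 0.161. Without the KI mouse of experiment 5 they were 0.0780 and 0.0790, and Cxcr3 also missed the threshold without the KI mouse of experiment 3 (0.0762). Without the wt mouse of experiment 3 the count was 4, S1pr1 (0.0217) and Itga4 (0.0422) joining. Leaving out either mouse labelled KO added S1pr1, Itga4 and Itgb7 to the calls. These mice enter this comparison mainly through the shared estimate of spread. The share of all genes called in the fits without a mouse is not given here, so the added calls cannot be set against it. B cell markers summed to 103 to 219 CPM in KI and 46.6 to 138 CPM in wt libraries at 48 h. The 3 gamma-delta T cell markers (Trdc, Tcrg-C1, Sox13), a type that can express Itgae, summed to 14.5 to 20.02 CPM in KI and 3.98 to 11.2 CPM in wt libraries, and Sox13 had a mean under 1 CPM in both. The part of these in the KI differences was not tested. All 4 NK cell markers had group means under 1 CPM in both groups at 48 h.

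**Figure D3:**
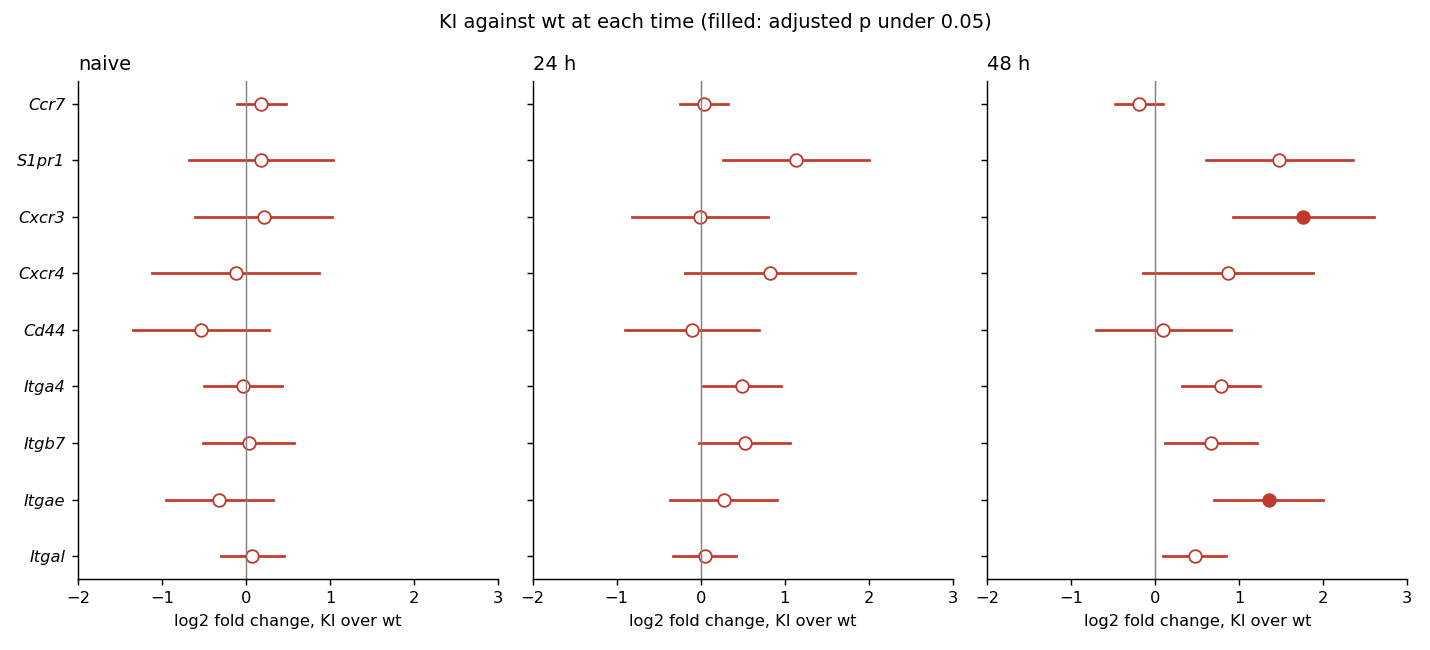
Log2 fold change of KI over wt with its 95% interval for the 9 genes in naive cells and after 24 h and 48 h; filled points have an adjusted p under 0.05. Naive intervals all include 0, and at 48 h Cxcr3 (1.76) and Itgae (1.35) are filled.

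The 48 h levels were also set against each mouse's own naive level. KI mice kept 21.5%, 13.9% and 14.9% of naive S1pr1, against 3.81%, 8.46% and 7.59% in wt mice. They kept 42.7%, 22.6% and 33.2% of Itgae, against 7.99%, 9.37% and 14.4%. They kept 56.3%, 55.2% and 35.4% of Itga4, against 31.4%, 29.8% and 21.4%. Of Cxcr4 they kept 48.0%, 19.5% and 17.2%, against 14.7%, 15.2% and 6.95%. For each of these genes every KI mouse lay above every wt mouse. Itgb7 overlapped, with 43.7%, 29.5% and 35.1% against 21.4%, 31.7% and 16.8%. For Cxcr3 the KI mice were at 120%, 112% and 151% of naive and the wt mice at 53.6%, 43.8% and 34.7%. Cd44 stood at 608%, 530% and 653% in KI mice and 524%, 485% and 223% in wt mice, a narrow gap. Itgal was at 123%, 116% and 110% against 99.6%, 101% and 62.3%. Ccr7 went the other way, at 128%, 121% and 138% in KI mice against 155%, 166% and 177% in wt mice. In all, 7 of 9 members had every KI mouse above every wt mouse, where 10.7% of the 19887 genes with naive counts in all 6 mice did, and 1 of 9 had every KI mouse below, where 10.2% did. On the first principal component of all tested genes (59.2% of the variance), KI libraries at 48 h were at 64.7, 70.1 and 77.6. The wt libraries were at 112, 95.8 and 91.6, and naive libraries of both genotypes at -130 to -122. KI cells thus lay nearer to naive cells across all genes, and the part of this in the member differences was not tested.

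**Figure D4:**
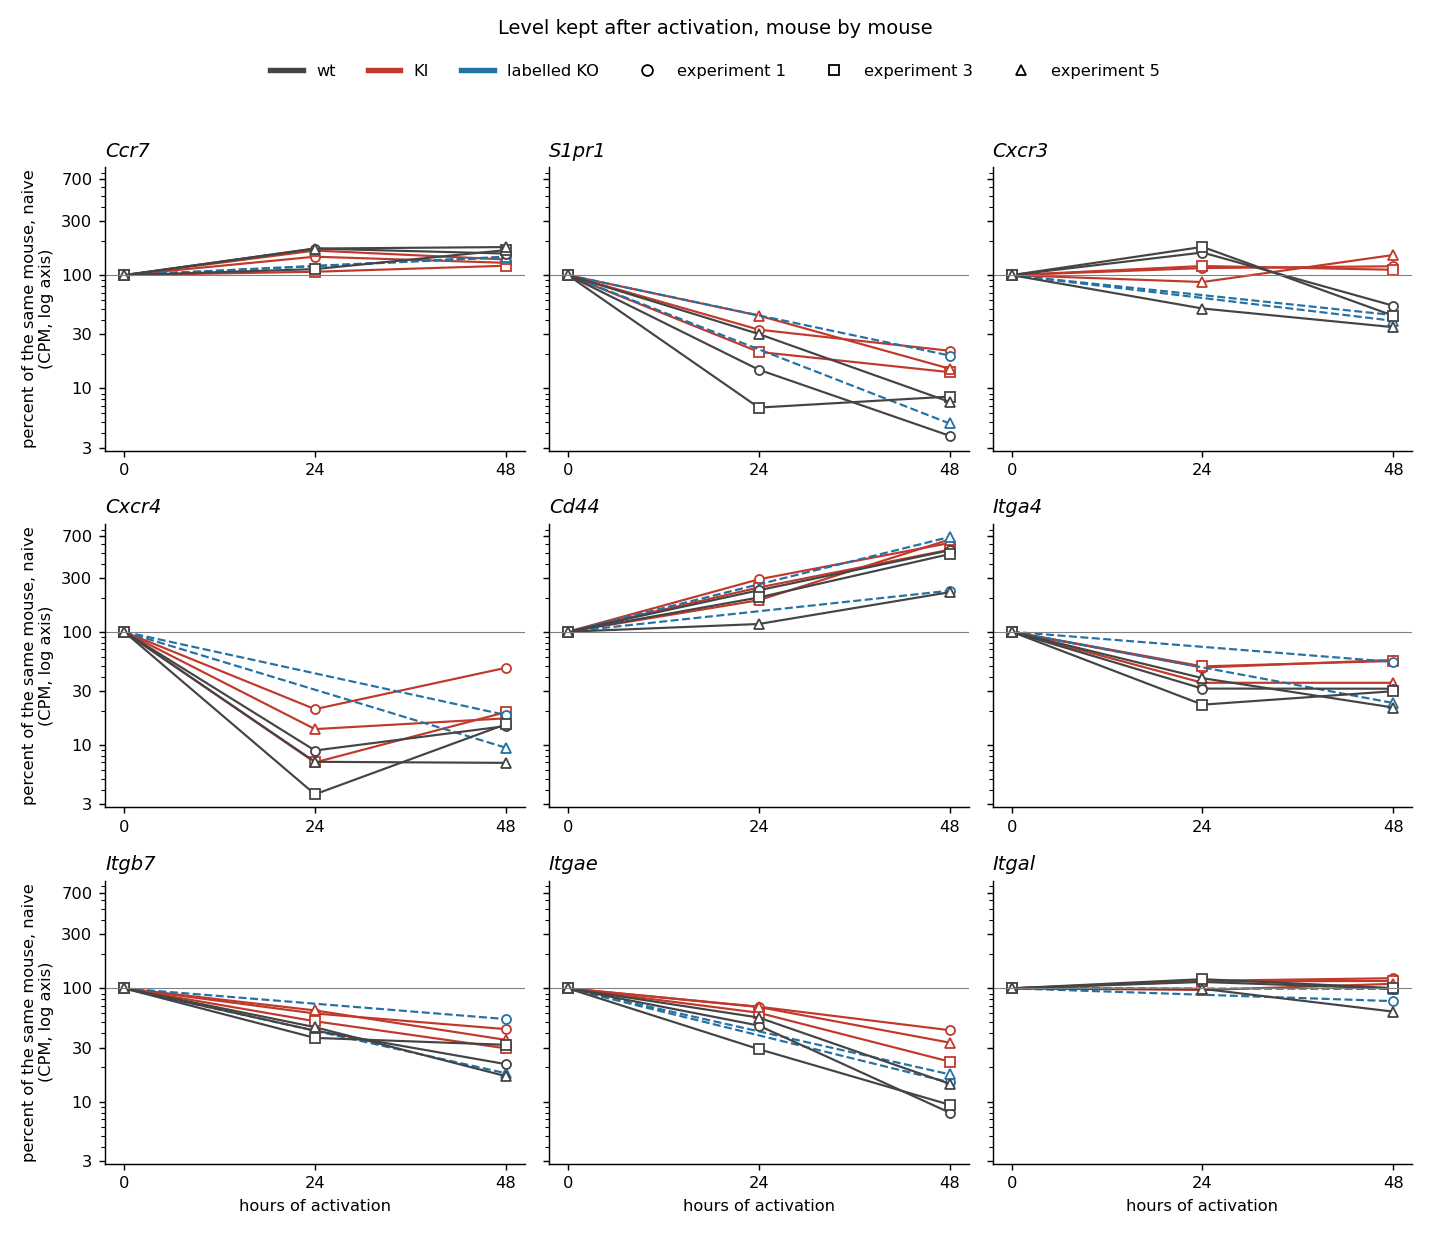
CPM after activation as a percent of the same mouse's naive CPM (log axis) against hours of activation for the 9 genes; each line is a mouse, and dashed lines, which have no 24 h point, are the mice labelled KO. At 48 h the KI and wt lines of Itgb7 overlap, every KI line of Ccr7 ends below every wt line, and those of the other 7 genes end above.

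The difference in response was tested as the interaction of genotype and time. At 48 h 0 of 9 members were called by edgeR, where 0.387% of all genes were; at an unadjusted p under 0.05 the whole table held 2055 genes. Itgae had the smallest adjusted p of the 9, with 1.67 ± 0.43 (SE) on the log2 scale (edgeR adjusted p = 0.118). With the replicate block it passed (edgeR adjusted p = 0.0379), as did 0.510% of all genes, and it passed in DESeq2 (adjusted p = 0.0163). Cxcr3 had 1.55 ± 0.55 (edgeR adjusted p = 0.312), Itga4 0.82 ± 0.31 (0.356) and S1pr1 1.299 ± 0.58 (0.474). At 24 h 0 of 9 were called, as were 0% of all genes.

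In the libraries labelled KO, 8 of 9 members were called at 48 h against naive, where 44.0% of all genes were, in the same directions as in wt cells and with Itgal not called. Without the mouse of experiment 5 the count was 5, without that of experiment 1 it was 6, and Cxcr3 (-1.22 ± 0.48, edgeR adjusted p = 0.0476) missed the threshold in 9 of 18 alternatives. With the groups of this comparison fitted alone, 2 libraries each, 1 of 9 was called, Itgae (edgeR adjusted p = 0.0465). The 2 mice differed widely at 48 h. S1pr1 was at 90.7 and 28.3 CPM in experiments 1 and 5, Itgb7 at 363 and 133 CPM, Itga4 at 269 and 145 CPM and Cxcr4 at 50.6 and 12.8 CPM. Itgae was at 27.4 and 52.6 CPM, Itgal at 461 and 495 CPM, Ccr7 at 773 and 686 CPM and Cd44 at 145 and 104 CPM. The library that stood apart had the higher S1pr1, Itgb7, Itga4 and Cxcr4 and the lower Itgae. Cxcr3 was at 6.99 and 2.63 CPM, 44.3% and 39.5% of naive, below its naive level in both mice as in the wt mice. The naive libraries labelled KO had 465 and 579 CPM of S1pr1, 677 and 748 of Itgb7, 498 and 616 of Itga4, 275 and 136 of Cxcr4, 185 and 302 of Itgae and 15.8 and 6.67 of Cxcr3, in the same order of mice. In naive cells Cd44 was at 62.8 and 15.2 CPM in experiments 1 and 5, the first the highest naive value of any mouse. In that naive library of experiment 1, B cell and CD4 T cell markers summed to 1219 and 264 CPM. Its NK cell and dendritic cell sums, 152 and 44.0 CPM, were also the highest of any naive library. Its CD8 T cell sum, 4058 CPM, was the lowest. At 48 h B cell and CD4 T cell markers summed to 216 and 202 CPM in the mouse of experiment 1. In the mouse of experiment 5 they summed to 34.2 and 30.7 CPM. The part of such cells in the differences between the mice was not tested.

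Against wt, 0 of 9 members were called in the libraries labelled KO, both in naive cells (0.0236% of all genes) and at 48 h (0.0283%), and 0 of 9 in the interaction (0% of all genes). These wt mice belong to the knock-in line and most were male, whereas the labelled KO mice belong to another line and were female. A difference by genotype thus cannot be told apart from one by line, or fully from one by sex. Leaving out the labelled KO mouse of experiment 5 leaves only the library that stood apart at 48 h. The log2 difference was then 1.10 for Itgb7, 1.42 for S1pr1, 0.90 for Cxcr3 and 0.87 for Itga4. Without the mouse of experiment 1 it was -0.34 for Itgb7, -0.26 for S1pr1, -0.50 for Cxcr3 and -0.025 for Itga4. With both mice these were 0.56 ± 0.29, 0.81 ± 0.45, 0.37 ± 0.44 and 0.49 ± 0.25 (edgeR adjusted p from 0.731 to 0.852). With all libraries the 95% interval for S1pr1 was -0.14 to 1.76 and for Itgae -0.03 to 1.38, so the KI estimates of 1.48 and 1.35 lie within them. For Cxcr3 it was -0.55 to 1.28, so the KI estimate of 1.76 lies outside it, though it overlaps the KI interval of 0.92 to 2.61. KI and labelled KO cells were not tested against each other. The KI and labelled KO comparisons share the wt libraries.

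For each member the 2 genes with the most similar log2 CPM profile across the 22 libraries were named by Pearson's r, as a description. For S1pr1 they were Tcp11l2 (r = 0.991) and Klf3 (r = 0.987), a KLF family transcription factor. For Itgb7 they were Rasal3 (0.986) and Ripor2 (0.983), and for Itga4 Wipf2 (0.975) and Fam13b (0.972). Itgae was most like Lrrc71 (0.969) and Arhgef11 (0.967), Cxcr4 most like the chemokine receptor gene Ccr2 (0.955) and Sertad2 (0.953), and Cd44 most like the potassium channel gene Kcnk5 (0.959) and Plxnd1 (0.956). Ccr7 (Asl, 0.922; Kcnn4, 0.900), Itgal (Gm10644, 0.883; Adgrl1, 0.870) and Cxcr3 (R3hcc1, 0.848; Fgfr1, 0.829) had looser matches. The libraries share mice, times and scaling. By Spearman rank correlation some of these genes ranked far lower, among them Lrrc71 (81) and Arhgef11 (218) for Itgae and Ripor2 (31) for Itgb7. Others, such as Asl for Ccr7 and Ccr2 for Cxcr4, ranked 1.

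Other genes of the homing system were taken from lists, and their counts in wt cells stand beside those of all genes. At 48 h 29.5% of all tested genes were higher and 26.8% lower, with a median log2 fold change of -0.04. Of 16 other chemokine receptors 2 rose and 8 fell (median -1.97). Ccr4, a receptor of skin homing, rose from 1.23 ± 0.52 to 19.6 ± 9.51 CPM (SD, n = 3), and Ccr8 from 0.21 ± 0.11 to 2.98 ± 0.26 CPM. Ccr9, which serves homing to the small intestine, fell from 207 ± 7.54 to 8.28 ± 3.32 CPM, and Cxcr6 from 74.5 ± 22.8 to 12.3 ± 2.72 CPM. Of 9 other lipid chemoattractant receptors 2 rose, S1pr2 and Ptger4, and 5 fell (median -1.68), among them S1pr4 and Gpr183. The fallen genes of these lists and of the integrin list below include Cx3cr1, Ccr2, Cxcr2, Itgam and Itgax, singled out after their values were seen, which NK or myeloid cells also express. Markers of those cells were lower in the same libraries, and their part in these falls was not tested.

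Fut7, which encodes a fucosyltransferase, rose from 0.88 ± 0.36 to 4.68 ± 0.61 CPM (SD, n = 3). Of 20 other integrin subunits tested 4 rose, Itgb1, Itgav, Itga3 and Itga5, and 11 fell. Of 23 genes that activate integrins 3 rose and 13 fell, among them Rasgrp2, a Rap1 exchange factor, from a mean of 384 to 44.6 ± 8.19 CPM, and Rassf5, a Rap1 effector, from 399 ± 8.05 to 183 ± 13.8 CPM.

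Of 26 regulators of these receptors 5 rose and 16 fell at 48 h in wt cells. Klf2 fell from 440 ± 31.5 to 16.6 ± 3.70 CPM, Klf3 from 299 ± 9.93 to 38.0 ± 5.81 CPM and Foxo1 from 347 ± 16.4 to 149 ± 11.1 CPM, and Hif1a rose from 99.5 ± 2.50 to 283 ± 58.7 CPM (SD, n = 3). Of 12 linkers of membrane and cytoskeleton 1 rose, Rdx, and 9 fell. Of 18 other adhesion molecules 3 rose, Alcam, Crtam and F11r, and 9 fell. Of 16 ligands of the members tested 1 rose, Spp1, and 9 fell, among them Vcam1, Fn1 and Cdh1, with naive means of 15.7, 12.2 and 7.13 CPM. Markers of NK and myeloid cells were lower in the same libraries, and the part of other cells in these falls was not tested.

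In naive cells and at 24 h 0 genes of these lists were called between KI and wt by edgeR. At 48 h 2.28% of all tested genes were higher in KI cells and 1.89% lower, with a median log2 difference near 0. Ccr9 (38.1 ± 8.76 against 8.28 ± 3.32 CPM, SD, n = 3, log2 difference 2.203 ± 0.35 SE, edgeR adjusted p = 0.00175) and Cxcr6 (54.8 ± 3.68 against 12.3 ± 2.72 CPM, 2.15 ± 0.29, edgeR adjusted p = 0.000658) were higher, 2 of 16 other chemokine receptors. S1pr4 was higher, 1 of 9 lipid receptors (0.76 ± 0.17, edgeR adjusted p = 0.0169). The sialyltransferase gene St6gal1 was higher (136 ± 18.8 against 58.3 ± 33.2 CPM, log2 difference 1.22 ± 0.30, edgeR adjusted p = 0.0283). The fucosyltransferase gene Fut4 was lower (-2.75 ± 0.64, edgeR adjusted p = 0.0190), at 0.32 to 0.41 CPM in KI against 0.54 to 5.07 CPM in wt libraries, so the wt libraries of this low transcript differed widely. Of 26 regulators Klf2 (49.6 ± 5.00 against 16.6 ± 3.70 CPM, edgeR adjusted p = 0.00494), Klf3 (81.9 ± 9.91 against 38.0 ± 5.81 CPM, 0.0109) and the TGF-beta receptor gene Tgfbr1 (31.99 ± 0.61 against 19.1 ± 4.42 CPM, 0.00715) were higher. Rassf5 and Dock2 were higher and Sipa1, which encodes a Rap1 inactivator, lower among 23 integrin activation genes. Was and Myh9, and Slamf6 and Pecam1, were higher in their lists, and 0 of 20 integrin subunits and 0 of 16 ligands were called. Each of these genes called higher in KI cells had fallen in wt cells by 48 h, whereas Fut4 had risen and Sipa1 was not called in that comparison. The 48 h wt libraries enter both of these comparisons.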

How the data were processed

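RNA of 22 libraries was made with a stranded poly(A) kit and sequenced as paired ends, per the labels' protocols. Per the submitters' processing notes, which give neither role nor order, the tools were bcl2fastq 2.20.0, TopHat2 2.1.0, Bowtie2 2.2.5, SAMtools 0.1.19, featureCounts and DESeq2 1.6.3, with GRCm38 and mm10 as builds; the strand setting of counting is not given in the sources used here. The authors deposited whole-number counts for 46603 Ensembl genes, used as deposited. The deposited log2 table equals log2 of the count over a library factor plus 1 (within a relative tolerance of 1e-09), and a further deposited log2 table holds variance-stabilised values, used as an alternative. The deposited FPKM values are those normalised counts over a gene length (same tolerance) and were used only for levels between genes. Positions are those of the deposited tables and have the same spans in GENCODE on GRCm38. No column belonged to other samples (0).

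Genes were kept by filterByExpr (minimum count 10, total 15), leaving 21183. Counts were scaled by TMM, and 8 group means were fitted to 22 libraries (14 residual degrees of freedom) in edgeR 4.0.16 under R 4.3.3, with robust dispersion and the quasi-likelihood F test. P-values were Benjamini-Hochberg adjusted over all tested genes, and a gene was called under 0.05. The SE of a log2 fold change was its size over the root of F. The script was tested on simulated counts. Groups came from the labels, and each mouse is a replicate. P-values measure the spread between libraries within groups, pooled over the groups, and the main fit does not model that libraries of different times share a mouse.

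Libraries with the same number are paired by design: the labels give each library its experiment and mouse. Times of a mouse entered the fit as separate libraries. Deviations from group means correlated across genes with a median r of 0.155 between libraries of the same mouse (20 pairs, 19 over 0.1), 0.0623 between mice of an experiment (51 pairs) and -0.0331 otherwise (140 pairs). No replicates were duplicates (chi-square per degree of freedom at least 14.4). Named list genes were the up to 3 per direction with the smallest p at 48 h in wt, and up to 3 called between KI and wt at 48 h. The members, lists, tests and alternatives were chosen with earlier results of these data known. Alternatives were 3 other scalings, 2 filters, limma 3.58.1, DESeq2 1.42.0, fewer groups, the block, sex, and leaving out each mouse. A gene of these lists is not reported here.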

Additional observations from a re-analysis of the deposited data

Results flagged for a closer look

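Cxcr3 at 48 h differed in direction between genotypes. It was below its own naive level in every wt mouse (log2 -1.53 to -0.90) and above it in every KI mouse (0.16 to 0.59). The difference in response was 1.55 ± 0.55 (SE) on the log2 scale, and the edgeR interaction test gave an unadjusted p of 0.0115 and an adjusted p of 0.312, which misses the threshold. Over the 18 alternatives the difference ran from 1.40 to 1.68 and the adjusted p from 0.0172 to 0.930. Cxcr3 is a low transcript here, at 3.32 to 17.5 CPM in KI and wt libraries, and its fall in wt cells alone missed the threshold without the wt mouse of experiment 5 (adjusted p = 0.0516).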

How the results depend on the processing

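Of 1440 alternative values of the 80 log2 fold changes named for the members, 1327 kept their direction and side of the threshold, 60 kept the direction and missed it, 39 newly passed and 14 turned sign. The sign changes were of values that did not pass the test: Cxcr3 at 24 h in KI with upper-quartile scaling (-0.051), a mean CPM of at least 5 (-0.039) and limma (-0.025), Itgal at 24 h with upper-quartile scaling in wt (-0.028) and KI (-0.037) and with a mean CPM of at least 5 in KI (-0.024), and others on leaving out a mouse. With 1 mouse left out, Cxcr3 in wt at 24 h ran from -0.081 to 0.76, Cd44 between KI and wt at 48 h from -0.16 to 0.43 (-0.096 without the wt mouse of experiment 5) and Itga4 in wt between 24 h and 48 h from -0.42 to 0.19. Between labelled KO and wt at 48 h the range was -0.26 to 1.42 for S1pr1, -0.50 to 0.90 for Cxcr3, -0.025 to 0.87 for Itga4 and -0.34 to 1.10 for Itgb7. Upper-quartile scaling lowered the median log2 fold change of all genes against naive by 0.17 to 0.22, and library size alone lowered it by 0.11 in the libraries labelled KO.

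Counts of members called in wt between 24 h and 48 h (2) were 1 with these groups alone, 5 in DESeq2 and 1 in limma. In KI between these times (0) they were 1 with the replicate block, 4 with these groups alone and 2 in DESeq2. In the labelled KO response (8) the groups alone gave 1. Between KI and wt at 48 h (2) the count was 4 with a mean CPM of at least 5, 4 with the replicate block, 5 with sex as a term, 1 with these groups alone and 4 in DESeq2. In the KI interaction at 48 h (0) the replicate block, the groups alone and DESeq2 gave 1 each. The block changed no other count by over 1.5 times.

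Leaving out each mouse in turn gave 5 to 7 calls in wt at 24 h, 7 to 8 at 48 h and 0 to 5 between them, 3 to 6 in KI at 24 h, 6 to 7 at 48 h and 0 to 3 between them, 5 to 8 in the labelled KO response, 0 to 5 between KI and wt at 48 h and 0 to 2 between labelled KO and wt at 48 h. The other 6 comparisons gave 0 to 0. With 1 labelled KO mouse left, its spread is assumed to be that of the other groups. Fewer libraries were fitted in these alternatives and with groups alone, and otherwise the cause of a change was not tested. Outside the main fit and the replicate block, shares of all genes called are not given here, so those counts of members cannot be set beside them.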
